A study of Mus musculus with 13 samples.

Results

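Pregnancy was compared with the non-pregnant state in 6 bulk RNA libraries of sorted mouse basal keratinocytes, which are 6 of the 13 samples of the study. Gestation day 16 was represented by 3 libraries from wild-type (WT) dams and the non-pregnant state by 3 libraries from WT mice. All 6 came from C57BL/6 mice and from cells of abdominal skin sorted as CD49f positive and CD34 negative. This gate takes basal cells and leaves out CD34 positive bulge cells. Markers of the upper hair follicle were still present in all 6 libraries, as given below. A further 3 bulk libraries from K14creERT2;Tbx3flox/flox mice at gestation day 16, which lose the T-box factor Tbx3 in keratin 14 expressing cells once tamoxifen activates the Cre, entered the model only to estimate the spread between libraries and are called cKO. Tamoxifen treatment of the WT animals is not given in the sources used here. The day 16 columns are headed only as WT and were assigned by exclusion. The genes described are the 11458 of 21950 in the table with a mean of at least 1 FPKM (fragments per kilobase of transcript, scaled to sequencing depth) over the 6 libraries, a line with 197 genes just above it (mean of 1.0 to 1.2 FPKM) and 270 just below it (0.8 to 1.0 FPKM). The question is which genes, and which families of secreted factors, receptors and transcription factors, stand at other levels in basal cells late in pregnancy.

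The basal layer holds the stem and progenitor cells of the epidermis, which attach to the basement membrane and divide to replace the layers above. Abdominal skin is known to expand during pregnancy, while ovarian, placental, pituitary and adrenal hormones circulate at high levels. Prolactin and placental lactogens signal through the prolactin receptor, the kinase JAK2 and the factors STAT5A and STAT5B, whose induced genes include SOCS proteins that damp the same pathway. Glucocorticoids and progesterone act through nuclear receptors that bind DNA directly.

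Markers of interfollicular basal cells were present in every library: all 16 on the list reached at least 1 FPKM somewhere among the 6 libraries, and their summed level was 35120 to 38750 FPKM at day 16 and 32170 to 41310 FPKM in non-pregnant skin. Depth behind the FPKM is unknown. In bulk RNA, fewer cells of a type and less RNA per cell cannot be told apart, and no label ties each library to its own animal. The p-values therefore reflect library-to-library spread, which may be technical.

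One library stood apart. Non-pregnant library 1 held transcripts that mark pluripotent cells: Dppa5a at 85.7 FPKM, Pou5f1 at 34.6, Tdgf1 at 25.9, Zfp42 at 22.6 and Nanog at 4.66. A list of 20 such genes, written after these values were seen, summed to 238.8 FPKM there, to 9.82 FPKM in non-pregnant library 2 and to at most 2.09 FPKM in each of the other 7 bulk libraries, and all 20 genes were highest in non-pregnant library 1. The Y-linked genes Eif2s3y (6.45 FPKM) and Ddx3y (2.36 FPKM) were also above 1 FPKM only in that library among the 9. A total of 53 genes with at least 5 FPKM lay more than 10-fold above every other library in non-pregnant library 1, of which 32 encode histones, against 0 to 4 genes in each of the other 8. What these transcripts contribute to the differences below was not tested. Values without this library are given beside the counts and calls that moved most. Non-pregnant library 3 had the most upper hair follicle transcript (Krt79 at 869 FPKM, against 50.6 to 181 in the other 5 WT libraries). Day 16 library 3 was higher than the other day 16 libraries in mitosis genes and lower in immediate early genes.

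By limma on log2(FPKM + 1) with Benjamini-Hochberg adjustment over all genes tested, 12 genes rose at day 16 (0.105%) and 3 fell (0.0262%). At an unadjusted p under 0.05, 426 genes were higher (3.72%) and 618 lower (5.39%). The groups did not overlap for 777 genes that were higher in all 3 day 16 libraries (6.78%) and 1008 that were lower (8.8%). Without non-pregnant library 1, 10 genes rose and 2 fell among 11380 tested, 9 of which also passed with all libraries, and non-overlap reached 12.4% higher and 16.6% lower, as it must with fewer libraries. These shares are the background for the counts of each family below, with 12.4% and 16.6% for every count made without non-pregnant library 1. The lists were chosen with earlier results of these data known, so a share above background describes a list and does not test it.

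Several of the genes that passed encode receptors, hormones or their regulators. Prlr, the prolactin receptor, stood at 29.8, 26.0 and 27.3 FPKM at day 16 and at 8.55, 7.57 and 6.21 FPKM in non-pregnant cells. Its difference on the log2(FPKM + 1) scale was 1.77 (SE 0.18, adjusted p = 0.00411), and 1.87 without non-pregnant library 1. The 3 day 16 values lay close together, well above the non-pregnant ones. Pyy, a hormone of gut endocrine cells, stood at 305, 239 and 193 FPKM against 31.0, 42.7 and 26.3. It was the most abundant of the risen genes that are named here, by FPKM, in each day 16 library. Il4ra, the shared receptor chain for interleukins 4 and 13, stood at 79.2, 64.1 and 89.8 FPKM against 20.6, 20.5 and 27.7 (adjusted p = 0.0348, or 0.123 without non-pregnant library 1). Grk3, a kinase that turns off activated G protein-coupled receptors, was near absent in non-pregnant cells at 0.706, 0.758 and 0.128 FPKM and reached 4.36, 6.30 and 6.72 at day 16.

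Other genes that rose act in steroid signalling, lipid handling and growth control. Fkbp5, a co-chaperone of steroid receptors that glucocorticoids and progestins induce in many tissues, stood at 44.7, 56.0 and 37.8 FPKM against 5.76, 5.28 and 7.73. Angptl4, a secreted inhibitor of lipoprotein lipase, stood at 31.3, 44.8 and 29.0 FPKM against 3.88, 6.43 and 5.69. Both had an adjusted p of 0.00243 and passed in each fit that left out 1 library. Deptor, an inhibitor of the growth kinase mTOR, stood at 18.3, 15.6 and 20.7 FPKM against 5.31, 3.93 and 4.84, and Xdh, which makes uric acid, at 31.7, 34.3 and 33.7 FPKM against 17.9, 18.2 and 16.2. Xdh had the smallest shift of the genes that rose, 0.90 on the log2(FPKM + 1) scale (SE 0.13, adjusted p = 0.0411, or 0.112 without non-pregnant library 1).

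Tgm3, which crosslinks proteins of the cornified envelope, stood at 112, 111 and 107 FPKM against 19.8, 4.84 and 15.4. Serpina3b, a secreted serine protease inhibitor, stood at 55.7, 66.6 and 86.4 FPKM against 8.16, 8.56 and 5.49. Its reads can be shared with close paralogs, so its level is uncertain. Drc1, a subunit of the regulatory complex of ciliary dynein, was spread from 11.6 to 33.3 FPKM at day 16 and stood at 1.05 to 2.03 FPKM in non-pregnant cells. Its adjusted p was 0.0411, and 0.0969 without non-pregnant library 1.

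The 3 genes that fell were Pkib, Unc13b and Acta2. Pkib, an inhibitor of protein kinase A, stood at 16.8, 41.0 and 25.1 FPKM at day 16 and at 125, 102 and 87.1 FPKM in non-pregnant cells. Unc13b, which primes secretory vesicles for release, stood at 4.57, 4.01 and 4.29 FPKM against 12.03, 11.1 and 13.1. Acta2, smooth muscle actin, stood at 1.25, 1.07 and 1.12 FPKM against 6.20, 8.95 and 4.91. None of the 3 passed when non-pregnant library 1 was left out (adjusted p of 0.123 for Pkib and 0.0969 for Unc13b and for Acta2), although their log2(FPKM + 1) differences moved only from -1.96 to -1.83, from -1.30 to -1.31 and from -1.81 to -1.84.

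**Figure D1:**
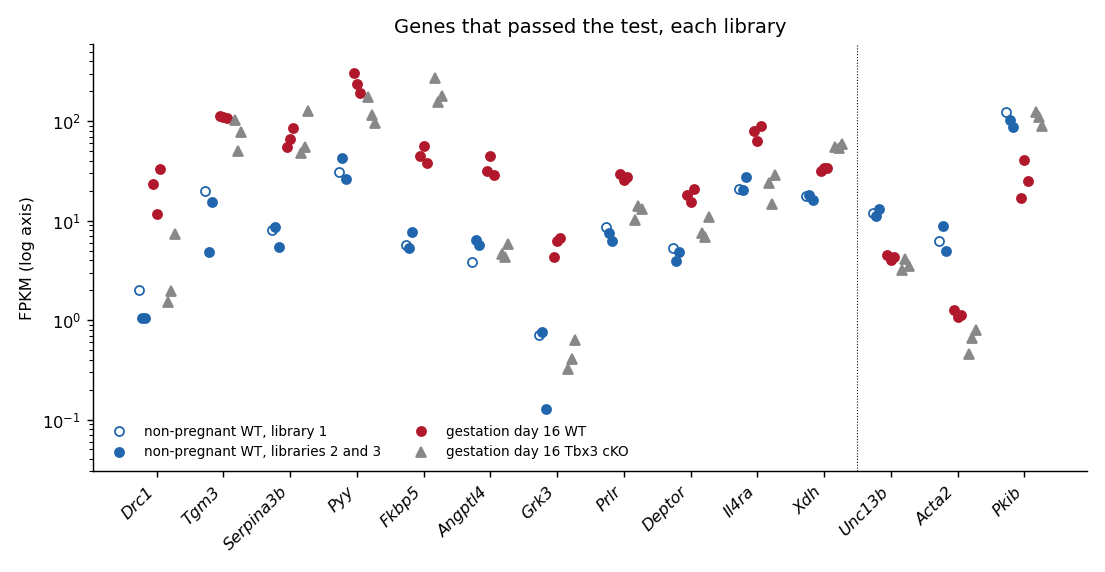
FPKM of 14 genes that passed the test (log axis) in each bulk library, with non-pregnant WT in blue (library 1 as an open circle), day 16 WT in red and day 16 Tbx3 cKO as grey triangles; genes left of the dotted line rose and genes right of it fell. The day 16 and non-pregnant WT points do not overlap for any gene, for example 26.0 to 29.8 against 6.21 to 8.55 FPKM for Prlr.

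The RefSeq windows (GRCm38.p6, the assembly of mm10) of 250 bases before each annotated start were read for the genes that passed, because Prlr and several others are known targets of hormone-regulated factors elsewhere. Windows were found for 10 of the 15 genes, 14 windows in all. The letters TTCNNNGAA, the core of STAT sites, which read the same on both strands, occurred in a window of 2 genes, Prlr and Pkib, and in 7.02% of all 32851 windows (8.13% of genes). The glucocorticoid and progesterone receptor element and the PPAR element were searched on both strands and occurred in none of the 14 windows, and in 0.387% and 0.338% of all windows. A match is a description of these letters only, and its absence from so short a window says nothing about the factor. Both windows with a match are shown 5′ to 3′ on the plus strand of the gene, with the STAT core in capitals. The Prlr window, chr15:10223656-10223905, lies before an internal start of the gene, whose model spans 10177238 to 10349180 on the plus strand of chromosome 15, and its match begins 110 bases before that start:
Prlr: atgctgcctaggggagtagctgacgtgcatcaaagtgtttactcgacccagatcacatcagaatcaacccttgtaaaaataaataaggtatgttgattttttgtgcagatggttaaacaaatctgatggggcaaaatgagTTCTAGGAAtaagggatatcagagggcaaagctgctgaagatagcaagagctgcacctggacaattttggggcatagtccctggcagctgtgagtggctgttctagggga
The Pkib window, chr10:57631731-57631980 on the plus strand of chromosome 10, lies before the outermost start, and its match begins 94 bases before it:
Pkib: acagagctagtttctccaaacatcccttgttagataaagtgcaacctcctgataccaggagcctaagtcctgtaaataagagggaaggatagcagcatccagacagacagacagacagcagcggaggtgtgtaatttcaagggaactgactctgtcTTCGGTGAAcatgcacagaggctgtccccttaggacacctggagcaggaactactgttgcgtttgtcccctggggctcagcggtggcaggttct

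Genes of the prolactin and STAT5 pathway lay mostly on the higher side. Of 24 tested, 17 had a log2(FPKM + 1) difference above 0 with a median of 0.15, against a median of -0.03 over all genes tested. The groups did not overlap for 8 of the 24, all higher (33.3%, background 6.78%), and 7 had an unadjusted p under 0.05. The list includes Prlr and was chosen with earlier results of these data known, so this share is a description only. The non-overlap count was 9 higher and 1 lower without non-pregnant library 1 (37.5% and 4.17%, beside 12.4% and 16.6% of all genes). Prlr was the only member that passed with all libraries. Socs2, a STAT5-induced feedback inhibitor of growth hormone and prolactin signalling, stood at 9.95, 14.1 and 18.6 FPKM against 6.94, 0.955 and 1.80. Its adjusted p was 0.143, and 0.0129 without non-pregnant library 1, where its log2(FPKM + 1) difference moved from 2.07 to 2.66. Another feedback inhibitor, Socs1, stood at 9.62, 10.7 and 16.7 FPKM against 5.59, 2.96 and 5.86 (adjusted p = 0.191). The related gene Socs3 went the other way without non-pregnant library 1 (difference -0.94, adjusted p = 0.721). The transducers themselves were also without overlap: Stat5a stood at 25.3, 24.3 and 27.5 FPKM against 12.3, 12.4 and 19.2, and Stat5b at 20.96, 21.7 and 19.05 against 11.2, 12.5 and 15.2, with adjusted p-values of 0.241 and 0.21. Prlr, Stat5a, Stat5b, Socs1 and Socs2 were thus on the same side, and among them the receptor alone passed with all libraries.

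Steroid receptors differed less clearly. Of 26 nuclear hormone receptors tested, 3 were higher and 2 lower without overlap (11.5% and 7.69%), near the background. Esr1, estrogen receptor alpha, stood at 9.18, 6.78 and 8.20 FPKM against 3.52, 1.66 and 1.79 (adjusted p = 0.245). Ppara, a fatty acid sensor that drives fat oxidation in liver, went the other way, at 11.1, 11.1 and 11.7 FPKM against 22.9, 26.5 and 19.9. It came close to the threshold (adjusted p = 0.0596, or 0.159 without non-pregnant library 1). Among 28 genes known to respond to glucocorticoids, 3 were higher and 1 lower without overlap, with a median of 0.07. Of those 3, Fkbp5 and Angptl4 passed the test, and the list's median turned negative without day 16 library 1 (-0.05).

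Among secreted factors, chemokines were mostly higher and cytokines mostly lower. Of 12 chemokines tested, 11 had a difference above 0 (median 0.36, against -0.03 over all genes), and 2 were without overlap, both higher. When non-pregnant library 1 was left out, 8 of the 12 were above 0 with 3 higher without overlap, and the list's mean centred level in day 16 library 3 (-0.14) lay below that of non-pregnant library 3 (-0.02). Cxcl14, a chemokine made in quantity by basal keratinocytes, stood at 1341, 1331 and 1106 FPKM against 675, 503 and 271. Its adjusted p was 0.114 with all libraries and 0.0577 without non-pregnant library 1. Cx3cl1, a membrane-tethered chemokine, stood at 19.5, 21.8 and 19.7 FPKM against 13.5, 12.2 and 12.8 (adjusted p = 0.173). Of 18 cytokines tested, 4 had a difference above 0 (median -0.36), and 7 were lower without overlap (38.9%, background 8.8%) against 2 higher. Without non-pregnant library 1 the count was 9 lower and 2 higher of 19 (47.4% and 10.5%, beside 16.6% and 12.4% of all genes).

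Epithelial alarm cytokines were among the lower ones. Il18, an inflammasome-processed cytokine, stood at 0.633, 1.02 and 1.28 FPKM against 9.17, 2.95 and 6.16 (adjusted p = 0.13). Tslp, which primes dendritic cells for allergic responses, stood at 0.571, 1.23 and 0.965 FPKM against 2.83, 4.55 and 3.54 (adjusted p = 0.17). Il1rn, the antagonist of interleukin 1, was far more abundant, at 50.3, 56.8 and 95.1 FPKM against 129, 185 and 166 (adjusted p = 0.143). An exception was Il34, the keratinocyte ligand that maintains Langerhans cells, which stood at 380.2, 309 and 327 FPKM against 188, 205 and 186 (adjusted p = 0.143). None of the cytokines passed. On the receptor side, Il18r1, a chain of the interleukin 18 receptor, stood at 15.5, 17.4 and 19.97 FPKM against 5.97, 6.86 and 3.35, and Il1rap, the accessory chain of interleukin 1 receptors, at 21.5, 21.8 and 25.6 against 12.7, 11.4 and 7.90. The ligand Il18 was thus lower and its receptor chain higher in the same libraries, neither past the threshold (adjusted p = 0.0881 for Il18r1 and 0.138 for Il1rap). Il18 and Il18r1 were named for small p-values within their lists.

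Wnt ligands and secreted Wnt inhibitors were mostly on the lower side, with 2 of 16 above 0 and a median of -0.19. Wnt5a, a ligand of non-canonical Wnt signalling, stood at 5.46, 4.88 and 6.11 FPKM against 13.2, 15.7 and 13.4 (difference -1.22, SE 0.21, adjusted p = 0.0814). Rspo3, a secreted amplifier of Wnt signalling, stood at 2.44, 1.35 and 2.22 FPKM against 11.1, 11.6 and 6.58 (adjusted p = 0.121). Lgr6, a receptor that binds R-spondins and marks upper follicle and interfollicular progenitors, stood at 18.2, 14.7 and 17.0 FPKM against 35.0, 34.04 and 30.6 (adjusted p = 0.173). A ligand and a receptor of the R-spondin branch were therefore both without overlap and both lower. Both were named by a rule that favours small p-values and large differences, so the pair is not a separate result. Over the whole Wnt ligand list 3 of 16 were lower and 1 higher without overlap. Without non-pregnant library 1 that count was 6 and 1 (37.5% and 6.25%, beside 16.6% and 12.4% of all genes).

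Growth factors of other families showed single members rather than a common direction. Igfbp5, an insulin-like growth factor binding protein, stood at 7.57, 5.92 and 11.4 FPKM against 2.30, 1.55 and 2.22 (adjusted p = 0.138), and 1 of 6 members of its list was higher and 2 lower without overlap. Among 20 genes of BMP, TGF-beta and activin ligands and their antagonists, 1 was higher and 3 lower without overlap (1 and 5 of 21 without non-pregnant library 1), with Bmp3 at 6.35, 7.40 and 5.41 FPKM against 11.8, 12.8 and 11.6 (adjusted p = 0.259). Fgfbp1, a carrier that releases FGFs from the matrix, stood at 356, 326 and 273 FPKM against 184, 245 and 239 (adjusted p = 0.35). Trh, the precursor of thyrotropin-releasing hormone, was listed at 0.289, 0.0285 and 0 FPKM against 15.9, 3.97 and 2.06 (adjusted p = 0.147). Its highest value lay in non-pregnant library 1. Without that library the difference was -1.83 in place of -2.53, and the adjusted p was 0.181.

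Serpins and extracellular proteases included several members that were higher. Without non-pregnant library 1, 6 of 17 serpins were higher without overlap (35.3%, beside 12.4% of all genes). With all libraries, 9 of 18 serpins tested had a difference above 0 and 9 below, with a median of 0.20. At an unadjusted p under 0.05, 6 were higher and 1 lower. Without overlap, 5 of the 18 were higher and 0 lower (27.8%, background 6.78%). Beside Serpina3b they included its neighbour in the family Serpina3i, at 24.0, 22.2 and 20.8 FPKM against 12.3, 13.5 and 6.42 (adjusted p = 0.204), and Serpinb12, at 5.28, 3.78 and 16.7 against 0.577, 1.33 and 0.611 (adjusted p = 0.213). Day 16 library 3 was the highest for Serpinb12. The median of the serpin list changed sign in 3 of its alternative settings, among them the one without day 16 library 1 (-0.10).

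Of 19 metalloproteinase, ADAM and TIMP genes, 5 were higher and 3 lower without overlap. Adam8, a membrane metalloproteinase with sheddase activity, stood at 138, 101 and 109.8 FPKM against 24.0, 39.8 and 52.5 (adjusted p = 0.173). Mmp14, the membrane metalloproteinase that activates pro-MMP2, stood at 129, 122 and 129.7 FPKM against 88.2, 72.0 and 78.3, and Mmp2 itself, a gelatinase, at 129.6, 131 and 107 against 59.3, 65.9 and 77.2 (adjusted p of 0.201 and 0.289). An activator and its substrate were both without overlap and both higher, and neither passed. Both were named for small p-values within their list, so the pair is not a separate result.

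Matrix genes lay on both sides. Of 17 laminins, nidogens and other basement membrane glycoproteins, 5 were higher and 1 lower without overlap (29.4% and 5.88%). Without non-pregnant library 1 these counts were 6 and 1 (35.3% and 5.88%, beside 12.4% and 16.6% of all genes). Of 15 collagens, 4 were higher and 2 lower, and 4 and 4 of 16 without that library. Lama1, a laminin alpha chain, stood at 9.73, 13.3 and 10.3 FPKM against 5.19, 5.77 and 2.31 (adjusted p = 0.198), and Col4a5, a basement membrane collagen chain, at 27.3, 27.6 and 32.1 against 19.1, 18.7 and 18.8 (adjusted p = 0.242). Of 21 matricellular and interstitial matrix genes, 1 was higher and 4 lower, with a median of -0.41. The median was -0.08 without non-pregnant library 1, with 2 higher and 4 lower of 18 (11.1% and 22.2%, beside 12.4% and 16.6% of all genes). Fn1, fibronectin, stood at 3.03, 2.37 and 4.02 FPKM against 9.502, 12.6 and 13.1 (adjusted p = 0.138), with non-pregnant library 1 the lowest of its group.

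Receptors other than those that passed gave a scattered picture. Plxnd1, a semaphorin receptor, stood at 44.2, 35.3 and 47.4 FPKM against 9.95, 15.0 and 9.64 (difference 1.81, SE 0.32, adjusted p = 0.0881). Adgrg6, an adhesion receptor coupled to cAMP, stood at 61.1, 63.4 and 49.6 FPKM against 32.7, 26.8 and 19.6 (adjusted p = 0.0761, or 0.0577 without non-pregnant library 1). Bmpr1b, a type I BMP receptor, was low in both groups, at 3.67, 2.97 and 3.34 FPKM against 1.18, 0.795 and 0.474 (adjusted p = 0.114). On the lower side, Robo2, a Slit receptor, stood at 2.49, 1.75 and 1.26 FPKM against 6.64, 8.91 and 5.06 (adjusted p = 0.114), and the orphan adhesion receptor Adgra3 at 66.7, 71.1 and 46.4 against 95.9, 230.3 and 177 (adjusted p = 0.259). Of 60 G protein-coupled receptors, 7 were higher and 9 lower without overlap (11.7% and 15.0%). Class I cytokine receptors, the family of Prlr and Il4ra, had 6 of 28 higher and 2 lower (21.4% and 7.14%), and of 12 integrins 0 were higher and 1 lower (2 and 1 of 11 without non-pregnant library 1).

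**Figure D2:**
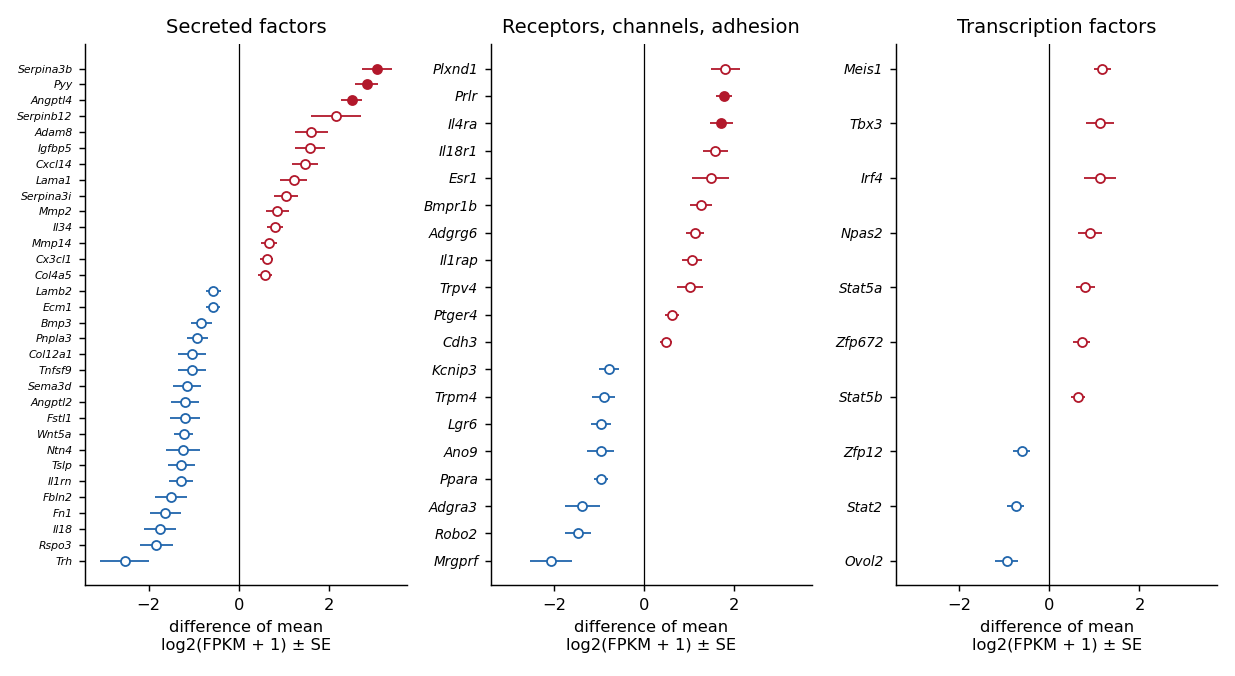
Difference of mean log2(FPKM + 1), day 16 minus non-pregnant, with its SE, for secreted factors, for receptors, channels and adhesion genes, and for transcription factors with an unadjusted p under 0.01 and no overlap between groups; filled points passed the adjusted threshold and open points did not. Serpina3b, Pyy and Angptl4 lead the secreted factors, Prlr and Il4ra are the filled receptors, and no transcription factor is filled.

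No transcription factor passed. The closest was Meis1, a TALE homeobox factor active in stem cells of several tissues, at 17.4, 16.5 and 16.8 FPKM against 6.05, 9.05 and 5.98 (difference 1.18, SE 0.19, adjusted p = 0.0567, or 0.159 without non-pregnant library 1). Its day 16 values lay close together and above all 3 non-pregnant values. Tbx3 itself stood at 17.0, 15.3 and 23.0 FPKM against 8.96, 6.38 and 8.12 (adjusted p = 0.258). Irf4, an interferon regulatory factor, stood at 9.91, 9.88 and 7.38 FPKM against 4.78, 4.49 and 2.06 (adjusted p = 0.328). Hif1a, an oxygen-regulated factor, stood at 68.7, 73.6 and 64.7 FPKM against 55.1, 48.3 and 25.1 (adjusted p = 0.369). Lower without overlap were Ovol2, a repressor that keeps epithelial identity, at 7.61, 9.80 and 10.4 FPKM against 16.8, 18.9 and 20.6, and Stat2, a transducer of interferon signals, at 12.9, 10.8 and 8.79 against 20.2, 17.6 and 18.4.

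Homeobox factors had 3 of 53 higher and 3 lower, and the AP-1, ATF, CREB, C/EBP, MAF and PAR group 2 of 49 higher and 1 lower. Neither the 7 SOX factors nor the 17 ETS factors had a member without overlap in either direction. STAT, IRF, NF-kB, SMAD and RUNX factors had 5 of 37 higher and 2 lower, but 5 higher and 8 lower (13.5% and 21.6%) without non-pregnant library 1. Without that library homeobox factors had 3 of 52 higher and 7 lower, the AP-1 group 3 of 49 higher and 4 lower, and 1 SOX factor was lower, beside 12.4% and 16.6% of all genes. Immediate early genes of the EGR, NR4A and IER kind had 14 of 19 above 0 with a median of 0.32, but the libraries of one group disagreed: their mean centred level was 1.11, 0.63 and -1.14 in day 16 libraries 1, 2 and 3, and -0.41, -0.02 and -0.16 in the non-pregnant libraries. Without day 16 library 1 that median was -0.06, and without day 16 library 3 it was 0.91. Dusp6, a phosphatase induced by ERK signalling, followed the same order at 139.8, 72.1 and 36.4 FPKM, against 21.6, 20.9 and 23.4.

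Genes of S phase and DNA replication lay mostly on the lower side at day 16. Of 61 genes tested, 7 had a difference above 0 (median -0.52, against -0.03 over all genes). The groups did not overlap for 31 that were lower (50.8%, background 8.8%) and 1 that was higher, and 30 were lower at an unadjusted p under 0.05 (49.2%, background 5.39%). None passed the adjusted threshold. Without non-pregnant library 1, 35 of the 61 were lower without overlap (57.4%, against 16.6% of all genes) and the median was -0.54, against -0.52 with it. All 6 subunits of the MCM helicase, which unwinds DNA at replication origins, were lower without overlap. Mcm3, the nearest to the threshold, stood at 10.6, 10.3 and 12.2 FPKM against 24.6, 20.4 and 25.3 (adjusted p = 0.0567, or 0.162 without non-pregnant library 1). Mcm6 stood at 19.7, 24.3 and 23.8 FPKM against 44.8, 39.6 and 46.3 (adjusted p = 0.154). Mcm2 had 1 non-pregnant library far above the others, at 14.1, 11.2 and 10.2 FPKM against 35.0, 24.9 and 99.1. Smaller gaps separated the groups for Mcm4 and Mcm7, which lie outside the naming rule and were added after their values were seen. Mcm4 stood at 12.8, 11.6 and 11.1 FPKM against 20.2, 13.4 and 17.4, and Mcm7 at 28.9, 37.2 and 30.2 against 37.5, 43.7 and 46.9.

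The cyclins that lead into S phase stood on the same side. Ccnd1, cyclin D1, stood at 36.0, 31.6 and 23.3 FPKM against 65.9, 48.5 and 73.2 (adjusted p = 0.174), Ccne1 at 1.25, 2.12 and 1.35 against 6.46, 3.00 and 3.55, and Ccne2 at 1.94, 2.94 and 2.17 against 5.02, 3.89 and 6.45. The genes of G2 and mitosis did not separate in the same way. Of 69 tested, 3 were above 0 with a median of -0.57, yet 4 were lower without overlap, below the background share. Their mean centred level was -0.86 and -0.57 in day 16 libraries 1 and 2 but 0.56 in day 16 library 3, above 2 of the 3 non-pregnant libraries (0.46, 0.63 and -0.22). The list's median was -1.03 without day 16 library 3 and -0.29 without day 16 library 1. Kif23, a motor of cell separation, had the same order among the day 16 libraries, at 18.2, 27.3 and 54.8 FPKM. Unlike the list level, all of these lay below its non-pregnant values of 64.8, 88.8 and 65.5.

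Histone genes had a median of -1.21 over 50 tested, with 6 above 0, but this rested on 1 library. Their mean centred level was 2.50 in non-pregnant library 1 and between -0.60 and -0.30 in the other 5. Without that library 16 histone genes reached the filter and their median was -0.05.

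**Figure D3:**
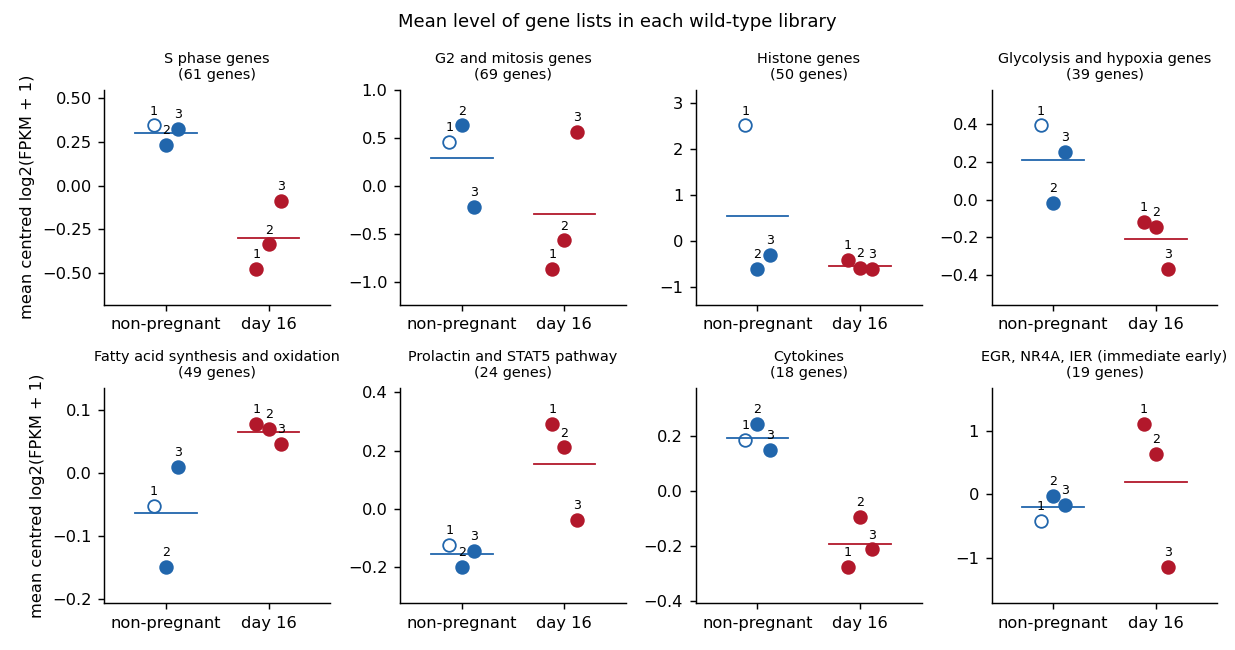
Mean over each list of log2(FPKM + 1), with every gene centred on its mean over the 6 libraries, for 8 gene lists; each point is 1 library with its number, blue non-pregnant (library 1 open) and red day 16, and the bar is the group mean. S phase genes separate the groups (-0.48 to -0.09 against 0.23 to 0.34), histone genes are high only in non-pregnant library 1 (2.50), and immediate early genes and mitosis genes vary widely among the day 16 libraries.

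Energy metabolism differed by pathway. Of 39 glycolysis and hypoxia genes tested, 8 were above 0 (median -0.32), and 19 were lower without overlap (48.7%, background 8.8%) against 2 higher. Without non-pregnant library 1, 19 were lower and 4 higher (48.7% and 10.3%, beside 16.6% and 12.4% of all genes), with a median of -0.30. The list held no gene that passed. Pkm, pyruvate kinase, stood at 209.8, 227 and 224 FPKM against 378, 318 and 426 (adjusted p = 0.29), and Tpi1, triose phosphate isomerase, at 196, 185 and 196 against 351, 318 and 402 (adjusted p = 0.323). A pair of genes classically induced by hypoxia was lower as well: Bnip3, a mitophagy receptor, stood at 26.6, 25.7 and 30.9 FPKM against 66.5, 46.2 and 62.3, and Car9, carbonic anhydrase 9, at 0.605, 2.195 and 1.81 against 11.8, 4.25 and 9.78. Hif1a mRNA, given above, stood on the opposite side from this pair.

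Fatty acid genes were on both sides. Of 49 genes of fatty acid synthesis, transport and oxidation, 26 were above 0 (median 0.03), with 11 higher and 4 lower without overlap (22.4% and 8.16%). These counts were 14 and 7 without non-pregnant library 1 (28.6% and 14.3%, beside 12.4% and 16.6% of all genes). The members named by the rule lay on both sides. Cpt1a, which commits fatty acids to mitochondria, stood at 49.9, 46.3 and 57.1 FPKM against 29.8, 24.5 and 24.7 (difference 0.93, SE 0.17, adjusted p = 0.0881). The carnitine carrier Slc25a20 stood at 41.9, 42.0 and 42.6 FPKM against 29.0, 27.9 and 23.9, and Acadl, the long-chain dehydrogenase, at 88.2, 84.9 and 119.9 against 58.2, 49.2 and 61.4. Both subunits of the trifunctional protein were higher, Hadha at 345, 341 and 424 FPKM against 191, 206 and 265 and Hadhb at 189, 159 and 198 against 114, 111 and 71.8. Their adjusted p-values lay between 0.173 for Acadl and 0.242 for Hadhb. Lower without overlap were Cpt1c, a relative of Cpt1a best known from neurons, at 1.79, 3.63 and 2.53 FPKM against 6.79, 4.92 and 5.43 (adjusted p = 0.244), Scd2, a fatty acid desaturase, at 2.24, 3.04 and 5.71 FPKM against 8.75, 8.88 and 7.80, and Fabp5, the epidermal fatty acid binding protein, at 26.2, 22.6 and 36.6 against 55.6, 51.2 and 53.5.

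Cholesterol genes leaned lower, with 9 of 31 above 0, a median of -0.13, and 9 lower against 1 higher without overlap (29.0% and 3.23%). Lss, which closes the sterol ring, stood at 10.9, 9.78 and 6.84 FPKM against 17.6, 26.7 and 21.2 (adjusted p = 0.19). The higher one was Hmgcs1, the cytosolic HMG-CoA synthase, at 135, 128 and 126 FPKM against 105, 102 and 79.9 (adjusted p = 0.327). Leaving out non-pregnant library 1 gave 12 lower and 1 higher (38.7% and 3.23%, beside 16.6% and 12.4% of all genes). Solute carriers, which move nutrients and ions across membranes, had 27 of 202 higher and 12 lower without overlap (13.4% and 5.94%), and 39 and 22 of 199 without that library (19.6% and 11.1%). They included Slc34a2, a phosphate transporter, listed at 2.51, 1.88 and 2.40 FPKM against 0.247, 0 and 0.110 (adjusted p = 0.0881), and Slc50a1, a sugar transporter, at 75.0, 66.4 and 66.1 against 40.9, 40.4 and 40.8 (adjusted p = 0.19).

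**Figure D4:**
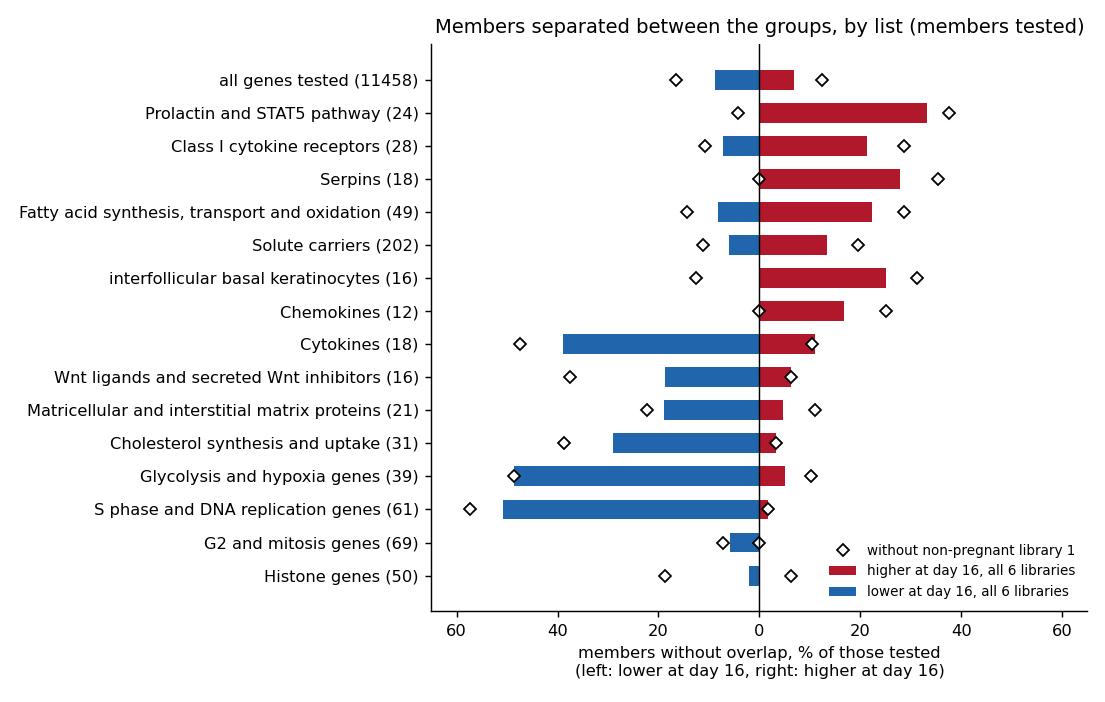
For 15 selected gene lists and all genes, the share of tested members whose day 16 and non-pregnant libraries did not overlap, higher to the right in red and lower to the left in blue, with the number tested in brackets; diamonds give the shares without non-pregnant library 1. S phase genes (50.8%), glycolysis and hypoxia genes (48.7%) and cytokines (38.9%) extend furthest to the lower side among the lists drawn, beside 8.8% of all genes, and prolactin and STAT5 genes (33.3%) furthest to the higher side among them, beside 6.78%.

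Some of the largest differences belonged to genes that did not pass, since their libraries were widely spread. Akr1c18, which inactivates progesterone, stood at 70.3, 58.9 and 41.5 FPKM against 4.69, 3.64 and 16.7 (difference 2.87, SE 0.69, adjusted p = 0.19). Zmat4, a zinc finger gene, stood at 13.9, 5.22 and 10.8 FPKM against 1.10, 0.772 and 0 (adjusted p = 0.117), and Ifi202b, an interferon-induced DNA sensor, at 80.0, 48.1 and 34.2 against 18.1, 10.5 and 3.68 (adjusted p = 0.114). Rerg, a small GTPase named for its regulation by estrogen, stood at 15.8, 9.85 and 16.5 FPKM against 3.80, 4.61 and 1.59 (adjusted p = 0.0961). On the lower side, Lgals1, galectin 1, stood at 1.142, 4.39 and 2.76 FPKM against 15.9, 11.6 and 8.61 (adjusted p = 0.103), and Dpysl3 at 1.98, 4.001 and 2.71 against 5.58, 17.5 and 17.6. Dpysl3 passed only without non-pregnant library 1 (adjusted p = 0.0399, or 0.165 with it). The ribosomal protein genes Gm10260 and Rps27rt, also in this group, have near-identical copies, so reads can be split between them. Junb was listed at 0 in non-pregnant library 2 although keratinocytes express it, so an FPKM of exactly 0 can be a failed estimate.

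Markers of other cell types were not level between the groups. Fibroblast markers summed to 771 to 948 FPKM at day 16 and to 434 to 702 FPKM in non-pregnant libraries (at least 670.5 FPKM there without library 1). Most of that sum was Thy1, a surface glycoprotein, at 669, 727 and 853 FPKM against 301, 594 and 579.97 (adjusted p = 0.779). Thy1 is also on the list of interfollicular basal markers used here, so this sum does not tell fibroblasts from basal cells. Vim, vimentin, was lower at 6.79, 4.85 and 3.15 FPKM against 17.2, 9.55 and 9.14 (adjusted p = 0.288). Of the 15 fibroblast markers, 6 stayed under 1 FPKM in all 6 libraries. Langerhans and other myeloid markers summed to 49.1 to 56.0 FPKM at day 16 and to 69.0 to 88.4 in non-pregnant libraries, with Cd74, the class II invariant chain, at 7.06, 11.9 and 13.7 against 17.2, 27.2 and 31.1 FPKM. T cell markers summed to 0.806 to 3.43 FPKM against 5.89 to 9.47. Smooth muscle and pericyte markers, which include Acta2, summed to 21.3 to 23.1 FPKM against 31.95 to 37.3. Of these 12 markers, 6 stayed under 1 FPKM in all 6 libraries, and Myh11 and Actg2 were at 0 in all 6. Tagln stood at 0.654, 1.01 and 0.478 FPKM against 2.86, 1.48 and 2.06, and Mcam at 4.88, 2.99 and 4.43 against 8.11, 9.74 and 6.35. Upper hair follicle markers summed to 720.7 to 1552 FPKM against 1242 to 4124 and had a median of -0.83 over 11 genes, which was -0.21 without non-pregnant library 3. The part of these cells in the fall of Acta2, in the cytokine and matrix lists and in Lgr6 was not tested. Suprabasal markers summed to 11220 to 21750 FPKM at day 16 and 15400 to 18130 in non-pregnant libraries, so the day 16 range contained the non-pregnant one.

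Libraries of another kind were available for the same states: 1 single-cell library of whole epidermis each from non-pregnant mice, gestation day 16, and days 6 and 40 after birth (Tbx3creERT2; R26H2B EGFP mice). All barcodes of a library were summed, and UMIs were scaled to the library total as CPM. No doublets were removed, and pairs of libraries shared 75 to 154 barcode sequences. With 1 library per state there is no test, and the intervals in the plot cover counting error only. Of the 14 genes plotted, 12 differed between day 16 and non-pregnant on the same side as in the sorted basal cells with intervals that did not overlap. The share of all genes with intervals apart is not given, so this count has no background. Counting intervals narrow as UMIs rise, so they can lie apart for small differences. Tgm3 was at 14.5 CPM in the non-pregnant and 94.1 CPM in the day 16 library, Pyy at 24.8 and 117, Deptor at 15.0 and 42.0, and Prlr at 53.9 and 82.0. Angptl4 went the other way, with 14.2 CPM in the non-pregnant and 7.27 CPM in the day 16 library. Unc13b was at 4.4 and 4.01 CPM with overlapping intervals, and Pkib was at 144 and 65.4 CPM.

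After birth the values took different courses. At day 6 Tgm3 was at 17.7 CPM, Deptor at 15.6, Fkbp5 at 19.5 (23.1 in the non-pregnant library) and Serpina3b at 13.7 (13.8 in the non-pregnant library). Pyy (85.8 CPM), Prlr (70.3 CPM) and Il4ra (20.1 CPM, against 15.4 in the non-pregnant library) were above their non-pregnant values at day 6 with intervals apart, and at day 40 they were at 12.1, 43.4 and 14.4 CPM. Acta2 was at 3.56 CPM in the non-pregnant library, 0.989 at day 16, 0.739 at day 6 and 3.09 at day 40. Pkib was at 113 CPM at day 6, between its day 16 and non-pregnant values. Socs2 was at 5.09 CPM in the non-pregnant library, 32.2 at day 16 and 7.41 at day 6. Zmat4 was at 0.742, 11.6 and 1.94 CPM in the same order.

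**Figure D5:**
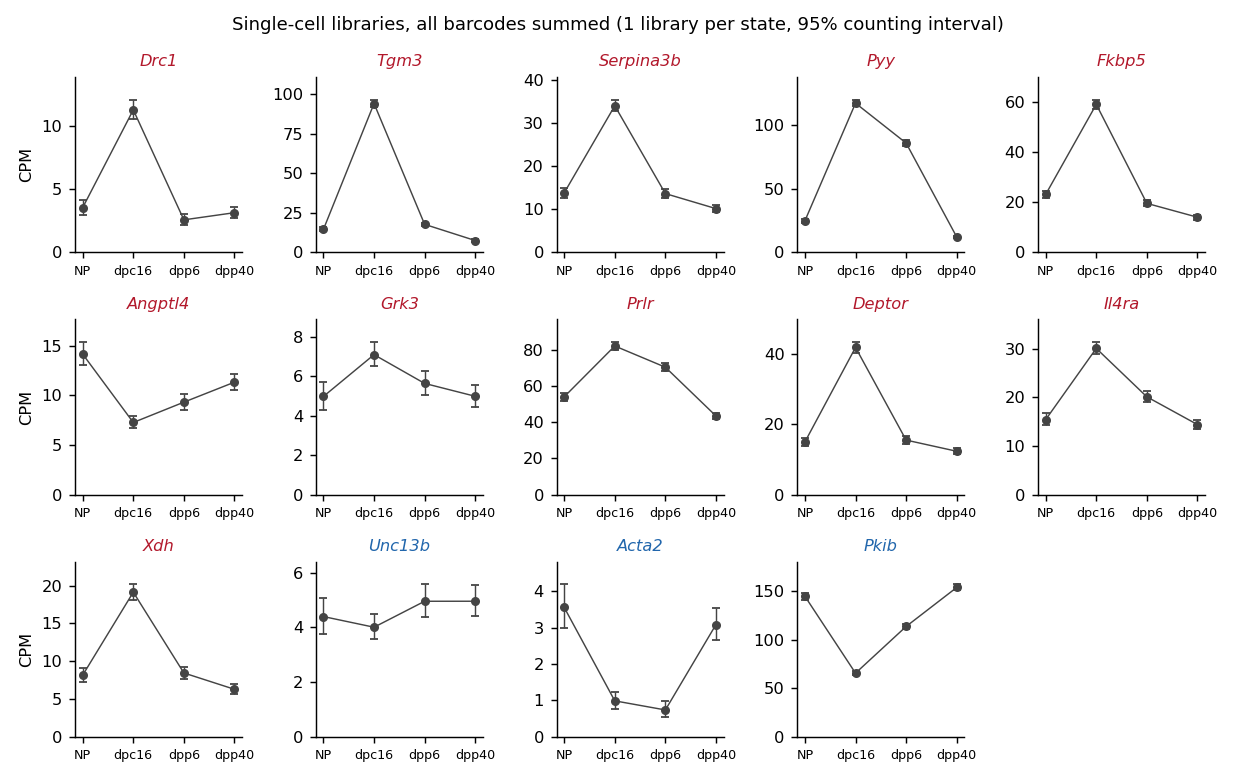
CPM (UMIs scaled to the library total) of the same 14 genes in the single-cell libraries of whole epidermis (NP, non-pregnant; dpc16, gestation day 16; dpp6 and dpp40, days after birth), with 95% counting intervals and 1 library per state; names in red rose and names in blue fell in the bulk comparison. Most genes that rose peak at dpc16, such as Tgm3 (94.1 CPM), while Angptl4 is lowest there (7.27 CPM).

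In whole epidermis the sums of some gene lists, such as S phase genes, stood on the other side from bulk. Prolactin and STAT5 genes summed to 656.1 CPM in the non-pregnant and 692.3 CPM in the day 16 single-cell library, with 11 of 24 higher at day 16. The share of all tested genes higher at day 16 is not given for these libraries, so this count and those below have no background. They do not show whether a list leaned with or against other genes. Such counts varied widely between other lists. They were 43 of 270 for zinc finger Zfp genes, 71 of 197 for solute carriers and 61 of 98 for heat shock proteins and chaperones. Chemokines summed to 4290 and 2901 CPM, with 6 of 12 higher, and cytokines to 1248 and 1467 CPM, with 6 of 17 higher. Both sums were opposite in direction to the bulk medians, but a sum follows its most abundant members. Bulk chemokine sums were 3013, 2894 and 2138 FPKM at day 16 against 1907, 1912 and 1439. Bulk cytokine sums overlapped, at 1264, 1183 and 1269 FPKM against 1178, 1255 and 1397. By members, most cytokines were lower in both kinds of library (4 of 18 above 0 in bulk). In the single-cell libraries this also held for zinc finger Zfp genes and solute carriers, so it is not particular to cytokines there. S phase and replication genes summed to 657.2 CPM in the non-pregnant and 759.5 CPM in the day 16 single-cell library, and 46 of 61 were higher at day 16, the reverse of the sorted bulk libraries. Genes of G2 and mitosis summed to 1611 and 1211 CPM, with 2 of 67 higher at day 16. Glycolysis and hypoxia genes summed to 2008 and 2344 CPM, also opposite to bulk. The library types differ in cells, mice and chemistry, and these contributions cannot be told apart.

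The 3 cKO libraries, which share gestation day 16, can be set beside these values without a test here. Angptl4 stood at 4.61, 4.36 and 5.79 FPKM and Grk3 at 0.319, 0.402 and 0.633, within or near the range of non-pregnant WT cells. Il4ra stood at 24.2, 14.6 and 28.6 FPKM, Meis1 at 8.02, 8.19 and 9.12 and Plxnd1 at 3.83, 2.10 and 7.11. By contrast Fkbp5 stood at 271, 157 and 179.7 FPKM and Xdh at 55.3, 54.1 and 59.8, above both WT groups. Socs2 stood at 13.5, 14.2 and 11.9 FPKM, inside the range of WT day 16. Mcm3 stood at 9.10, 9.69 and 10.7 FPKM, near the WT day 16 values.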

How the data were processed

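The 9 bulk libraries of sorted basal cells were deposited as FPKM per gene. Build mm10 and the tools TopHat2, Cuffdiff, Cufflinks 2.2.1 and cutadapt 1.14 appear, without roles, in the submitters' processing notes. Which annotation was used, and whether libraries were scaled to each other, is not stated. The deposited single-cell files hold UMI counts per gene and barcode (Cell Ranger 2.2.0 per the submitters' processing notes), 40450455 UMIs in the non-pregnant and 74804602 in the gestation day 16 library.

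Values were taken as log2(FPKM + 1), which understates changes of low genes. Genes averaging 1 FPKM or more across the 6 WT libraries (11458) were fitted with limma 3.58.1 (R 4.3.3): 3 group means over 9 libraries, empirical Bayes with trend, two-sided, Benjamini-Hochberg adjustment over all genes tested, threshold 0.05. The script was tested on simulated data. A gene's groups do not overlap when all 3 libraries of one lie above all 3 of the other. Single-cell counts were summed over all barcodes, with no doublet removal, and given exact Poisson intervals. Libraries are numbered by column order.

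Named genes are those that passed, the 12 largest differences each way among the others (mean of at least 5 FPKM, no overlap), and from each of 101 gene lists the 4 smallest p-values plus further members with an unadjusted p under 0.01 and no overlap. Of the 12 genes that rose, 1 is not reported here, nor are some other genes the rule names. Lists, members and rule were chosen with earlier results of these data known. Gene positions are from GENCODE M21. Alternatives were another pseudocount, filter, scaling, moderation or library set, sample weights, a replicate block, and each library left out.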

Additional observations from a re-analysis of the deposited data

How the results depend on the processing

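As reported above, 12 genes were higher and 3 lower at day 16. Genes higher numbered 31 with sample weights, which also gave 15 lower, and 9 to 12 under the other alternatives that kept all libraries. Genes lower numbered 0 without the filter on low values, and 2 to 4 under the remaining alternatives that kept all libraries, apart from the replicate block. The fit of the 6 compared libraries alone, without the cKO libraries, called 12 genes, 9 of them shared with the main fit. None of the 3 genes that fell passed there (adjusted p of 0.0697 for Unc13b, 0.0881 for Acta2 and 0.0946 for Pkib). Of the genes that rose, Tgm3 (0.063), Grk3 (0.0697) and Xdh (0.106) also did not pass in it. Leaving out 1 library at a time gave 5 to 12 genes higher and 0 to 3 lower. The fewest higher came without non-pregnant library 3 (5) and without day 16 library 1 (6), and 0 were lower without either of these, without non-pregnant library 2 or without cKO library 1, against 1 without day 16 library 3. The column numbers do not pair the samples (deviations of same-numbered libraries correlated at -0.07, -0.07 and -0.21), so the replicate block, which gave 10 genes higher and 0 lower, has no basis in the design. Adjusted p-values of Pyy, Fkbp5, Angptl4 and Prlr stayed under 0.05 in every alternative run (highest 0.0377, for Prlr). The calls of Serpina3b, Tgm3 and Deptor were lost in 1, 4 and 4 of the 9 fits that left out a library, and those of Grk3, Drc1, Il4ra, Unc13b, Pkib, Xdh and Acta2 in 6 to 9. Of 93 list medians, 39 kept their sign in every alternative. Of 52 counts of list members recomputed without non-pregnant library 1, an alternative added after the data were seen, 38 stayed within 1.5 times. Depth is unknown for FPKM, so counting error could not be given.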
